A study of Mus musculus with 6 samples.

Results

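Microglia, the resident macrophages of the brain, were examined in single-cell RNA-seq data from the hypothalamus of male ob/ob mice. They were the cells that carry the label for microglia in the authors' deposited table, and numbered 380 of the 20151 cells of 4 mice. Every mouse was of the ob/ob strain, which lacks functional leptin and is obese and diabetic, was 11 weeks old, and had received 3 µg of FGF1 R50E by intracerebroventricular (icv) injection 5 days before it was killed. FGF1 R50E is a mutant of fibroblast growth factor 1 known for a loss of integrin binding. All 4 mice belonged to this one group, and each gave 1 library (mice 3, 4, 30 and 34, as numbered in the labels); 2 more mice of the group had no cells in the table and were not analysed here. No other group was analysed here, so no effect of the injection could be estimated. The comparisons below were made between cell types of the same mice, and the spread between mice is described.

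Microglia arise from early yolk sac progenitors rather than from blood monocytes, and are maintained by signalling through the receptor Csf1r. In the healthy brain they express a set of surface proteins and sensors, among them the fractalkine receptor Cx3cr1, the ADP receptor P2ry12 and the membrane protein Tmem119, and they clear debris and synapses with the help of complement and lysosomal proteases. During inflammation they are known for release of chemokines and cytokines, for antigen presentation on major histocompatibility complex (MHC) molecules and for the interferon response, while transcripts of the resting state can fall. Macrophages of the meninges and perivascular spaces share many of these genes.

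The microglia of the 4 mice held 395534 unique molecular identifiers (UMIs, each marking one captured RNA molecule), with 133441 in mouse 3, 44756 in mouse 4, 98630 in mouse 30 and 118707 in mouse 34. Median UMIs per microglial cell ran from 893 to 1000.5 and median detected genes from 528 to 616. The median share of mitochondrial UMIs lay between 12.6% and 15.0%. Mouse 30 had the fewest UMIs and genes per cell, and mouse 4 the fewest cells. The median silhouette score, a measure of how well a cell fits its cluster, was 0.238 in mouse 3, 0.187 in mouse 4, 0.111 in mouse 30 and 0.218 in mouse 34, and the median doublet score 0.0547, 0.0631, 0.0743 and 0.0472. Mouse 30 thus had the lowest silhouette and the highest doublet scores, and their part in its results below was not tested. Of 19954 distinct cell barcodes 194 occurred in more than 1 of the 4 libraries, and 13 microglial barcodes were among those found in another library, none of them as microglia there. Levels are given as CPM, the UMIs of a gene scaled to a fixed total of microglial UMIs in each mouse. These 3′ tag counts were not divided by gene length. A gene without UMIs could lie at up to 22.5 CPM in mouse 3, 67.0 CPM in mouse 4, 30.4 CPM in mouse 30 and 25.3 CPM in mouse 34, the level of 3 counts. This is a one-sided limit, and the upper ends of the two-sided intervals used for levels lie above it. These limits and all intervals cover counting error only.

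The share of microglia differed between mice. They made up 1.73% of cells in mouse 3 (128 of 7386, exact 95% binomial interval 1.45 to 2.06%), 1.07% in mouse 4 (34 of 3180, 0.742 to 1.49%), 3.16% in mouse 30 (95 of 3005, 2.57 to 3.85%) and 1.87% in mouse 34 (123 of 6580, 1.56 to 2.23%). The interval of mouse 30 overlapped with none of the others. Over mice the share was 1.96% ± 0.875 (SD, n = 4). Since a share depends on how well each type survived dissociation, fewer cells of another type and more microglia cannot be told apart.

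The label fitted its defining markers. At least 1 UMI of Cx3cr1, P2ry12 or Tmem119 was found in 329 of the 380 microglia (86.6%), against 1.45% to 2.37% of the cells of each of the 7 other types with enough cells in every mouse (astrocytes, tanycytes, ependymal cells, oligodendrocytes, their committed precursors, their precursor cells and endothelial cells). Among vascular leptomeningeal cells, which were too few to be fitted, it was 10 of 68 (14.7%). In microglia the share was 96.9% in mouse 3, 88.2% in mouse 4 and 89.4% in mouse 34, but 68.4% in mouse 30. Cx3cr1 was detected in 77.6% of microglia and in 1.12% of oligodendrocytes, P2ry12 in 36.3% and 0.416%, and Tmem119 in 48.9% and 0.394%, the oligodendrocytes serving as the background of free RNA. After thinning every cell to 500 UMIs the microglial shares were 59.2%, 17.9% and 34.2%, with no cell too shallow to thin. All 380 cells, and no others, formed 1 cluster of the authors' clustering, which rested on the same counts. Differences between microglia and the other types below are therefore a description of the label and no independent test of it.

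Against the mean of the 7 other types, 1025 genes (10.1%) were called higher and 988 (9.72%) lower in microglia, together 19.8% of the 10166 genes tested (edgeR quasi-likelihood test on counts summed per type and mouse, mouse as a block, adjusted p under 0.05 and a change of more than 1 on the log2 scale). With DESeq2 size factors in place of TMM the split was 1140 higher and 635 lower, and the median log2 fold change of all genes moved from −0.36 to −0.20. With DESeq2's own test it was 1188 higher and 448 lower. With microglia against endothelial cells 20.6% of genes were called (756 or 7.44% higher, 1343 or 13.2% lower), and against astrocytes 29.1% (1153 or 11.3% higher, 1810 or 17.8% lower). With DESeq2's own test the balance of these splits shifted, to 944 higher and 970 lower against endothelial cells and to 1362 higher and 1213 lower against astrocytes. The counts of listed genes called against the mean of the other types, given below, stand against these shares of 10.1% higher and 9.72% lower, those against endothelial cells against 7.44% and 13.2%, and those against astrocytes against 11.3% and 17.8%. Of all genes tested, 17.8% were called against the mean of the other types with the same direction in every mouse. The 12 genes with the largest differences among those higher in every mouse were Tnf, Ccl4, P2ry6, Ccl3, Il1a, Gpr183, Slc11a1, Tmem119, C3ar1, Il10ra, Rgs1 and Cx3cr1, a set of cytokines and chemokines (Tnf, Ccl3, Ccl4, Il1a), receptors for nucleotides, oxysterols, complement fragments, interleukin 10 and fractalkine, a G protein regulator (Rgs1) and a metal transporter of phagosomes (Slc11a1). The 6 genes with the lowest values among those lower in every mouse and at 100 CPM or more in microglia were S100a16, Ptn, Zbtb20, Sirt2, S100a6 and Cnp, with log2 differences from −1.77 for S100a16 to −1.60 for Cnp. Ptn, a secreted growth factor of glia, stood at 227 to 402 CPM in microglia and at 156 to 3691 CPM over the sums of the other types.

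Genes of microglial identity were high in every mouse and were mostly lowest in mouse 30. Of the 13 members tested of a list of 14, 12 were called higher than the mean of the other types, where 10.1% of all genes were called higher. Cx3cr1 was at 2398 CPM in mouse 3, 2257 in mouse 4, 1247 in mouse 30 and 2333 in mouse 34, against at most 34.2 CPM in any sum of the other types. P2ry12 was at 599.5, 536, 264 and 514 CPM in mice 3, 4, 30 and 34. Tmem119 was at 899, 983, 466 and 792 CPM. For each of these 3 genes mouse 30 was lowest and the other mice lay close together. Gpr34, a lysophosphatidylserine receptor, ranged from 122 CPM in mouse 30 to 509.6 CPM in mouse 3. In all, 13 of the 14 members were lowest in mouse 30 (12 of 14 with TMM-scaled totals), where 27.6% of the 2814 genes with at least 20 microglial UMIs were lowest in that mouse.

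Cst3, which encodes cystatin C, was the most abundant member and was not particular to microglia. It was at 26236, 19081, 14651 and 24531 CPM in mice 3, 4, 30 and 34, while the other types reached 31325 CPM. Its log2 difference was 1.61 ± 0.07 (SE) from the mean of the other types but 0.06 ± 0.10 (SE) from astrocytes, where it was not called. Sparc, a matrix glycoprotein, was the member tested but not called, with a log2 difference of 0.58 ± 0.08 (SE). Without Cst3, the other 13 members summed to 12792 CPM in mouse 3, 12401 in mouse 4, 7513 in mouse 30 and 11988 in mouse 34, so that mouse 30 stood below the remaining mice also without the dominant gene.

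**Figure D1:**
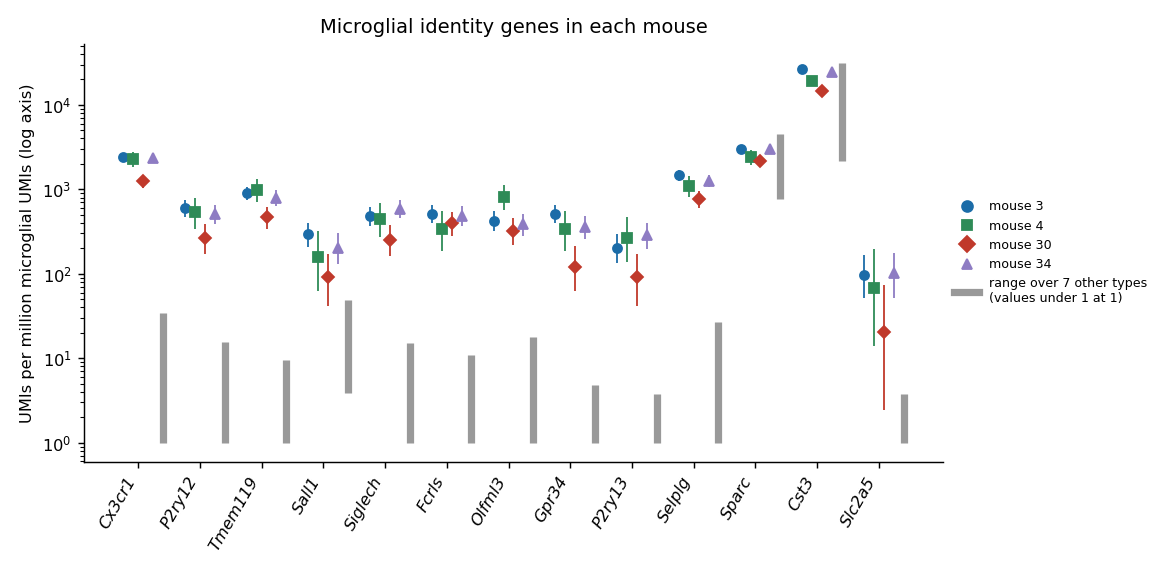
Levels of 13 of the 14 identity genes in the microglia of each mouse, in CPM on a log axis, with exact 95% Poisson intervals of the count; grey bars span the sums of the 7 other types over the 4 mice. Most genes lie far above the grey bars, except Cst3 and Sparc, and most are lowest in mouse 30 (diamonds).

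All 11 transcription factors tested were called higher in microglia, and Spi1, which encodes the myeloid master regulator PU.1, was too low to be tested. Irf8 was at 412, 134, 243 and 480.2 CPM in mice 3, 4, 30 and 34. It was lowest in mouse 4, and the other types stayed at or below 10.3 CPM. Sall1, the factor that sets microglia apart from other macrophages, was at 292, 156, 91.3 and 202 CPM, lowest in mouse 30. Mef2c differed less from endothelial cells (1.26 ± 0.19 (SE), log2) than its difference of 4.02 ± 0.20 (SE) from the mean of the other types, since endothelial cells hold it too.

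The receptor that maintains microglia varied little between mice. Csf1r was at 1484, 1676, 1439.7 and 1542 CPM in mice 3, 4, 30 and 34 (mean 1535 ± 103 SD, n = 4), and the other types stayed at or below 22.3 CPM. Tgfbr1, a receptor subunit for TGF-β, was at 599.5, 559, 345 and 657 CPM, lowest in mouse 30. Of the 11 members tested in the list of survival factors and receptors, 7 were called higher than the mean of the other types and none lower, and 4 were called higher and 1 lower than endothelial cells. Csf1 did not pass, at 112, 44.7, 81.1 and 33.7 CPM, and Il34, the neuron-derived ligand of Csf1r, had no UMI in any microglial cell.

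Complement genes were the most even group. C1qa was at 2930.1, 2927, 2981 and 2856 CPM in mice 3, 4, 30 and 34, a mean of 2923 ± 51.4 (SD, n = 4), and 90.3% of microglia held at least 1 UMI. C1qb was at 3357, 2859.9, 3366 and 3429 CPM and C1qc at 2893, 3329, 2656 and 2704 CPM, the other subunits of C1q. The 8 complement genes summed to between 9603 and 9862 CPM in the 4 mice. With TMM-scaled totals the sum of mouse 4 was 7911 CPM and the other mice lay between 10217 and 10492 CPM, so the evenness held only for plain totals. Of 7 members tested, 6 were called higher than the mean of the other types, among them the anaphylatoxin receptors C3ar1 and C5ar1. The central component C3 had UMIs only in mouse 30, in 3 cells.

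Phagocytic receptors and lysosomal genes were likewise part of the microglial profile. Of 13 receptors and signalling partners tested, 11 were called higher. Trem2, the lipid-sensing receptor, was at 1139, 1028, 558 and 1045 CPM in mice 3, 4, 30 and 34. Its adaptor Tyrobp stood at 1746, 1899, 1227 and 2030.2 CPM. Mouse 30 was lowest for both. The Fc receptor Fcgr3 was at 397, 357, 699.6 and 404 CPM, highest in mouse 30. Axl and Gas6, a receptor and ligand for apoptotic cells, did not differ past the threshold from the mean of the other types (log2 difference 0.45 ± 0.32 (SE) for Axl). Among 20 lysosomal genes tested, 17 were called higher. The protease Ctss was at 1911, 3173, 2433 and 1963 CPM and Ctsd at 3469.7, 4066, 2575 and 3336 CPM. Ctss was highest in mouse 4, as was Ctsd on plain but not on TMM-scaled totals, and the members highest in that mouse numbered 11 of 20 on the former and 6 on the latter, where 29.1% of all 2814 genes were highest in mouse 4 on plain totals. Lamp1, Lamp2 and Psap were not called.

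Purine receptors, of which P2ry12, P2ry13 and Gpr34 are also identity genes, were lower in mouse 30 in sum. The list summed to 1829 CPM in mouse 3, 1586 in mouse 4, 872 in mouse 30 and 1769 in mouse 34. P2ry6, a UDP receptor that triggers phagocytosis, was the exception in its evenness, at 195, 201, 182 and 185 CPM. Of 8 members tested, 7 were called higher than the mean of the other types. The adenosine receptor Adora1 was called lower, with a log2 difference of −1.45 ± 0.48 (SE), but lost the call with DESeq2 and without mouse 3, 4 or 30.

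**Figure D2:**
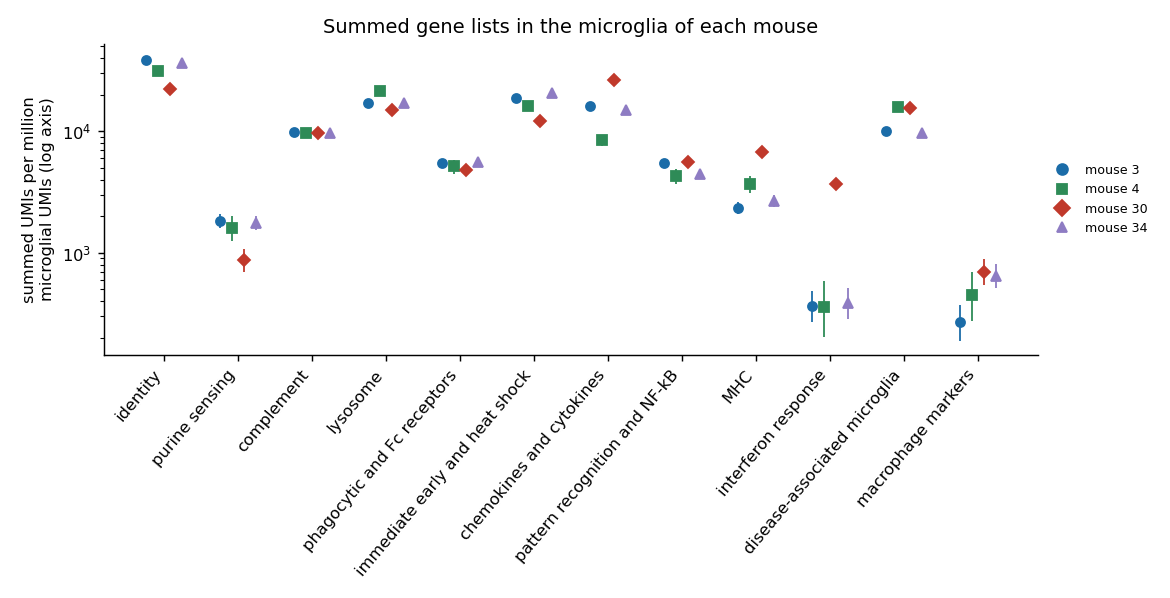
Summed levels of 12 gene lists in the microglia of each mouse, in CPM on a log axis, with exact 95% Poisson intervals. Mouse 30 (diamonds) lies lowest for the identity, purine sensing and immediate early lists and highest for the chemokine, MHC and interferon lists, while the complement sums nearly coincide.

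Chemokines and cytokines were abundant in microglia and scarce in most other types. Of 15 members tested, 14 were called higher than the mean of the other types, 13 higher than endothelial cells and 14 higher than astrocytes. Ccl4 and Ccl3, chemokines that attract monocytes and lymphocytes, were the most abundant in mice 3, 4 and 34. Ccl4 was at 8940.3, 4737, 5546 and 8559 CPM in mice 3, 4, 30 and 34, while no sum of the other types exceeded 53.1 CPM. It was found in 80.0% of microglia and 1.36% of oligodendrocytes. Ccl3 was at 3642, 1251, 2058 and 3243 CPM. Both were lower in mice 4 and 30 than in mice 3 and 34. Tnf was at 495, 313, 821 and 548 CPM and Il1a, the gene of interleukin 1α, at 779, 379.8, 527 and 446 CPM. The other types reached 6.0 CPM for Tnf and 11.4 CPM for Il1a, so neither overlapped between microglia and any of the 7 fitted types.

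A second set of chemokines was high in mouse 30. Ccl12, a monocyte attractant, was at 847 CPM in mouse 3, 804 in mouse 4, 6519 in mouse 30 and 581 in mouse 34. In mouse 30 it was found in 75 of 95 microglia (78.9%) and in 6.13% of oligodendrocytes. Cxcl2, a neutrophil attractant, was at 255, 67.0, 4339 and 337 CPM, and Il1b, which encodes interleukin 1β, at 389.7, 268, 1805 and 227 CPM. Cxcl10, an interferon-induced chemokine, was at 105, 44.7, 1237 and 92.7 CPM. Ccl7 had no UMI in mouse 3 and was at 134, 1389 and 227 CPM in mice 4, 30 and 34. For each of these 5 genes the lower limit of mouse 30 lay above the upper limits of the other mice. Each mouse gave 1 library, so mice were not tested as groups. Ccl3, Ccl4 and Il1a were instead highest in mouse 3. Without mouse 30 the log2 difference of Cxcl10 from the mean of the other types rose from 3.11 to 6.23, and that of Ccl2 from 4.42 to 6.89. The cause was not tested.

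Genes of pathogen sensing and NF-κB signalling were called higher in 13 of 14 members tested. Cd14, a coreceptor for lipopolysaccharide, was at 262, 246, 852 and 362 CPM in mice 3, 4, 30 and 34, highest in mouse 30. The NF-κB inhibitor gene Nfkbia was even, at 1881, 1809.8, 1480.3 and 1516 CPM, and Nlrp3, the inflammasome sensor, was called higher by 7.76 ± 0.34 (SE) on the log2 scale. Cd180, which was too low to be tested, was at 89.9, 89.4, 0 and 92.7 CPM and so had no UMI in mouse 30. All 7 chemokine and cytokine receptors tested were called higher.

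Interferon-response genes were low in the microglia of 3 mice and high in mouse 30. The 17 genes summed to 367 CPM in mouse 3, 357 in mouse 4, 3660.1 in mouse 30 and 388 in mouse 34. Rsad2, which encodes the antiviral protein viperin, was at 7.49, 0, 446 and 8.42 CPM in mice 3, 4, 30 and 34. Isg15, a ubiquitin-like modifier, was at 15.0, 22.3, 345 and 25.3 CPM. The transcription factor Irf7 was at 0, 0, 223 and 8.42 CPM. Gbp2, a guanylate-binding protein of host defence, was at 7.49, 0, 172 and 16.8 CPM, and Ifitm3, a membrane protein that restricts viruses, at 37.5, 67.0, 760.4 and 109.5 CPM. For each of these 5 genes the intervals of mice 3, 4 and 34 overlapped with each other and mouse 30 stood above all of them.

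Most calls for this list rested on mouse 30. Of 16 members tested, 6 were called higher than the mean of the other types: Isg15, Irf7, Bst2, Rsad2, Ifi27l2a and Gbp2. Without mouse 30, Rsad2, Isg15, Gbp2 and Irf7 were no longer called, with log2 differences of 0.80, 1.31, 0.88 and −0.43, while Bst2 and Ifi27l2a still passed. Isg15 also lost the call without the cells that held macrophage markers (1.63). Against endothelial cells, which hold interferon-response genes at 1382 to 2473 CPM in sum, 1 member of 16 was called higher (Ifi27l2a) and 3 lower (Isg15, Oasl2 and Ifitm3), near the 7.44% and 13.2% of all genes called higher and lower.

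Promoter sequence is shown for 6 members that were high in mouse 30, to place the binding motifs of the factors known to drive them. The 250 bases before the RefSeq start site were taken from the GRCm38.p6 assembly. Capitals mark the interferon-stimulated response element (ISRE, the letters TTTC, any 2 bases and TTTC again, searched on both strands) and the NF-κB consensus. Rsad2 lies on the minus strand at chr12:26456453-26456702, Isg15 on the minus strand at chr4:156200819-156201068, Gbp2 on the plus strand at chr3:142620413-142620662, Cxcl10 on the minus strand at chr5:92348890-92349139, Cxcl2 on the plus strand at chr5:90903649-90903898 and Ccl12 on the plus strand at chr11:82101595-82101844. Ccl12, the most abundant of them in mouse 30, is shown because it held no match to either motif.
Rsad2: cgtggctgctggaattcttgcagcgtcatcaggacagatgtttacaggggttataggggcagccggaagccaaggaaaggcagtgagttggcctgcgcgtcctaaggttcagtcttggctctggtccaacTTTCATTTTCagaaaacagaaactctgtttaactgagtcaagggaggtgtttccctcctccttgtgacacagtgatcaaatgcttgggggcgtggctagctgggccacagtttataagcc
Isg15: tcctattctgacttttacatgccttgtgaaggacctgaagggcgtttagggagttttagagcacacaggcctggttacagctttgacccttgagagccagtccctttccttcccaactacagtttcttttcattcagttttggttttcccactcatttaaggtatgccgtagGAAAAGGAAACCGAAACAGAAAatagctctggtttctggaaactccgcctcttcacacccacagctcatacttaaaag
Gbp2: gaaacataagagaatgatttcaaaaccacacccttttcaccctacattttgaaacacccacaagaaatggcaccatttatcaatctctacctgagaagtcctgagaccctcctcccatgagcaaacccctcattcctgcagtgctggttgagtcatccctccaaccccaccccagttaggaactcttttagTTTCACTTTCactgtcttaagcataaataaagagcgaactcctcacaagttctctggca
Cxcl10: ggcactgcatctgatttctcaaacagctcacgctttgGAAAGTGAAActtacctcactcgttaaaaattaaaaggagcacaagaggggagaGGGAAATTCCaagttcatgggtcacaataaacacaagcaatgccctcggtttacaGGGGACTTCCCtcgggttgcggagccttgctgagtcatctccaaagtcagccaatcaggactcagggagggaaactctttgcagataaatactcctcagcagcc
Cxcl2: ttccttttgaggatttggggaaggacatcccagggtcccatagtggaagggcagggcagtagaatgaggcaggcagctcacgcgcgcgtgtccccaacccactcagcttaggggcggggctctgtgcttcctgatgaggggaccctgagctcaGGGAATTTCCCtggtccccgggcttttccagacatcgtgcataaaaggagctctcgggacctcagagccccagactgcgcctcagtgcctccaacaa
Ccl12: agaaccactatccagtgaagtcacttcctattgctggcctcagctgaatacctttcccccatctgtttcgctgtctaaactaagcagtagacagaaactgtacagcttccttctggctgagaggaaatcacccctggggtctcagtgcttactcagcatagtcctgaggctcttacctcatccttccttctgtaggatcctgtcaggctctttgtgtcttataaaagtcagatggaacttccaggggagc

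The first base of the ISRE match stood 120 bases before the start of Rsad2, 59 before that of Gbp2 and 213 before that of Cxcl10. Isg15 held 3 matches that overlap one another, 78, 72 and 66 bases before its start. Cxcl2 had no ISRE match and held an NF-κB match 97 bases before its start, overlapping one on the other strand, and Cxcl10 held NF-κB matches 159, 104 and 103 bases before its start, the last 2 of which overlap. An ISRE match occurred in 7 of the 14 promoter windows of interferon-list genes, in 1 of 13 windows of chemokine and cytokine genes (Cxcl10) and in none of 12 windows of identity genes, compared with 2.98% of all 32851 promoter windows. The NF-κB consensus occurred in 5 of the 13 windows of chemokine and cytokine genes (Ccl9, Cxcl1, Cxcl10, Cxcl2 and Il6), in 3 of the 14 of interferon-list genes (Bst2, Ifit2 and Ifitm3), in 1 of the 12 of identity genes (P2ry12) and in 7.25% of all windows. The windows covered 12 of the 17 interferon-list genes, 13 of the 18 chemokine and cytokine genes and 10 of the 14 identity genes. Ifitm3, also high in mouse 30, had no ISRE match. A match describes these letters only and does not show that a factor was bound.

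**Figure D3:**
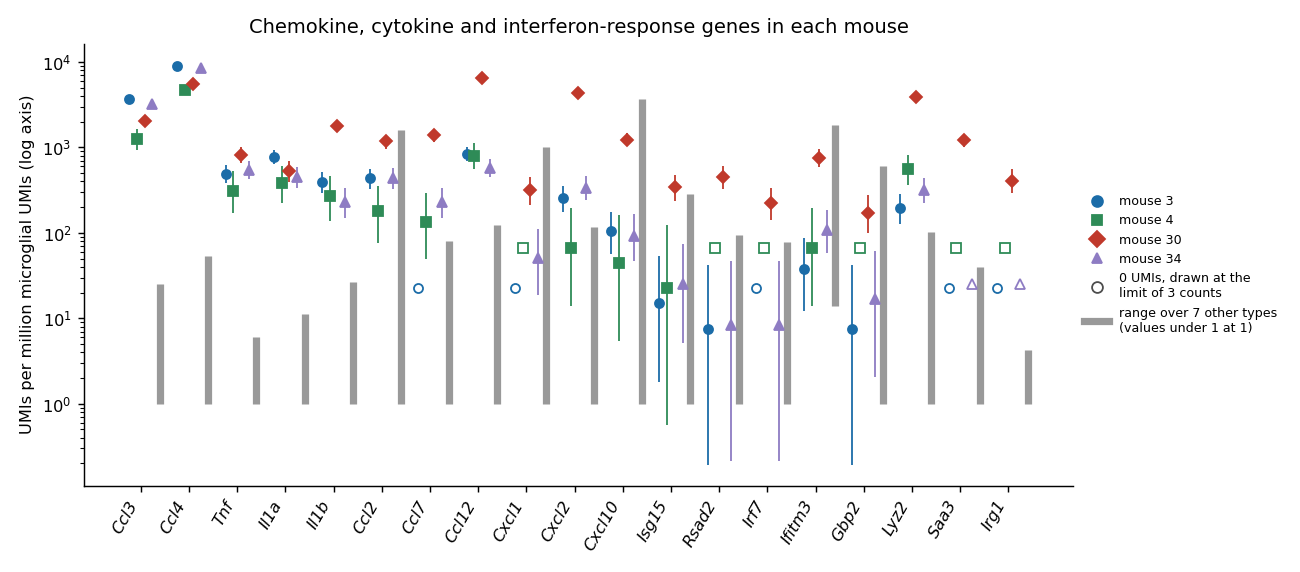
Levels of chemokine, cytokine, interferon-response and related genes in the microglia of each mouse, in CPM on a log axis, with exact 95% Poisson intervals; open symbols stand for 0 UMIs, drawn at the level of 3 counts, and grey bars span the sums of the 7 other types. From Il1b to the right mouse 30 (diamonds) lies above the other mice, whereas Ccl3 and Ccl4 show no such gap.

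MHC genes were called higher than the mean of the other types in all 9 members tested and higher than endothelial cells in 5, and the class II genes came from few cells. H2-Aa was at 0, 246, 527 and 25.3 CPM in mice 3, 4, 30 and 34. In mouse 4 all of these UMIs lay in 1 cell, whereas in mouse 30 they lay in 16 of 95 cells. H2-Ab1 was at 7.49, 201, 355 and 0 CPM and H2-Eb1 at 0, 223, 365 and 0 CPM, in mouse 4 again from 1 cell each. The invariant chain Cd74 was at 74.9, 626, 1217 and 152 CPM. Class I genes were found in all mice, with B2m at 1341, 1609, 2596 and 1525 CPM and H2-K1 at 412, 223, 872 and 421 CPM. The MHC sums were 2331, 3664, 6823 and 2679 CPM. Of the 164 UMIs of this list in mouse 4, 67 lay in 1 cell. Without mouse 30, H2-Aa, H2-Ab1 and H2-Eb1 were too low to be tested, so that the count of 9 includes genes that pass the low-count filter through that mouse. The same held for Ccl5, Ccl7, Nfkb2 and F13a1 of other lists.

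Immediate early genes, transcription factors induced rapidly by stimuli, were abundant in microglia. Of 17 members tested, 16 were called higher than the mean of the other types (10.1% of all genes) and all 17 higher than astrocytes (11.3% of all genes). Against endothelial cells 3 were called higher and 2 lower, where 7.44% and 13.2% of all genes were. Fos was at 3582, 2726, 2129 and 3951 CPM in mice 3, 4, 30 and 34. It differed from endothelial cells by −0.13 ± 0.18 (SE) on the log2 scale. Egr1 was at 2548, 2525, 1855 and 2578 CPM. Atf3 separated microglia further from endothelial cells, by 2.60 ± 0.19 (SE), and was at 2038, 782, 659 and 1828 CPM. The heat shock genes Hspa1a and Hspa1b were called lower than in endothelial cells, with log2 differences of −2.46 and −2.48. The list summed to 18735 CPM in mouse 3, 16266 in mouse 4, 12278 in mouse 30 and 20749 in mouse 34. In contrast to the interferon and chemokine lists, mouse 30 was lowest.

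Genes of the disease-associated microglial state included defining markers at or near 0. Cst7 and Itgax, markers of that state, had no UMI in any microglial cell, and Gpnmb had UMIs in 1 cell. Of 13 members tested, 6 were called higher than the mean of the other types: Spp1, Lgals3, Lyz2 and the cathepsins Ctsb, Ctsd and Ctsl. Of all genes 10.1% were called higher. Spp1, which encodes osteopontin, came from 1 cell each in mice 3 and 4 and 5 cells in mouse 30, and lost the call without mouse 4 (log2 difference 1.35). Lyz2, the macrophage lysozyme, was at 195, 559, 3934 and 320.1 CPM in mice 3, 4, 30 and 34, with mouse 30 far above the others. Of its UMIs, 47.2% in mouse 30 and 65.8% in mouse 34 lay in cells with 2 or more macrophage markers, and without these cells it was at 122, 494, 2421 and 117 CPM. Apoe did not differ from the mean of the other types past the threshold (0.13 ± 0.11 (SE), log2) and was called lower than in astrocytes, with a log2 difference of −1.61.

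Of the listed lipid-handling, glucose and hormone genes, a part was called, where 19.8% of all genes were called. Among genes of lipid handling, Hpgds, the synthase of prostaglandin D2, was at 337, 290.5, 162 and 295 CPM in mice 3, 4, 30 and 34. Ptgs1, the constitutive cyclooxygenase, stood at 405, 357, 152 and 329 CPM. Both were lowest in mouse 30. Of 14 lipid-handling genes tested 6 were called higher, namely Cd36, Alox5ap, Ltc4s, Hpgds, Hpgd and Ptgs1. Hk2, a hexokinase, was 1 of 2 glucose genes called higher of 9 tested, by 5.04 ± 0.24 (SE) on the log2 scale. The glucose transporter gene Slc2a1 was called lower at −1.01 ± 0.33 (SE), a call lost under 5 of 10 alternatives, whereas the fructose transporter Slc2a5 was too low to be tested. Among hormone and growth factor genes, Socs3 and Fkbp5 were called higher and Igf1r lower, out of 8 tested. Lepr had UMIs in 2 microglia.

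The pathway of the injected protein was sparsely detected. Fgfr1 was at 15.0, 67.0, 20.3 and 8.42 CPM in mice 3, 4, 30 and 34, from 7 cells in all, and its call as lower (−1.27 ± 0.47 (SE), log2) was lost under 6 of the 9 alternatives that gave a value. Fgfr3 was at 52.5, 89.4, 142 and 75.8 CPM and was called lower only against astrocytes, with a log2 difference of −3.40. Of the 17 genes tested in the FGF and ERK list, 4 were called higher than the mean of the other types (Dusp6, Etv5, Ccnd1 and Epha2) and 3 lower (Fgfr1, Spry2 and Epha4, the last of which had no microglial UMI), beside 10.1% and 9.72% of all genes. Against endothelial cells 1 was called higher and 5 lower, beside 7.44% and 13.2% of all genes. Against astrocytes 5 were called higher and 5 lower, beside 11.3% and 17.8%. Dusp6, an ERK phosphatase that ERK itself induces, was at 172, 246, 203 and 194 CPM, a mean of 204 ± 30.8 (SD, n = 4). Over the sums of the 7 other fitted types it reached 129 CPM, in endothelial cells of mouse 30, a value within the counting interval of each mouse's microglia. Etv5 lost its call without mouse 34 (0.73) and Ccnd1 without mouse 30 (0.95). Of 9 integrin genes tested, 6 were called higher and Itgb8 lower. Itgb5 was at 435, 469, 395 and 472 CPM, and Itgam, the subunit CD11b, at 359.7, 379.8, 456 and 244 CPM. Itgav, the partner of Itgb5, was not called, at 92.7 to 122 CPM.

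Markers of other cells were examined within the microglial label. Macrophage markers were present: 26 of 380 cells (6.84%, exact 95% interval 4.52 to 9.86%) held UMIs of at least 2 different genes of a 10-gene list. These were 2 of 128 cells in mouse 3, 3 of 34 in mouse 4, 13 of 95 in mouse 30 and 8 of 123 in mouse 34. Mrc1 was at 22.5, 44.7, 101 and 143 CPM, and Pf4 at 74.9, 67.0, 253 and 219 CPM, whereas Cbr2 and Folr2 were at 0 in every mouse. The summed list stood at 269.8 CPM in mouse 3, 447 in mouse 4, 699.6 in mouse 30 and 649 in mouse 34. Monocyte, neutrophil and lymphocyte markers were sparse, with 3 of 9 genes detected. They summed to 0, 44.7, 71.0 and 0 CPM in mice 3, 4, 30 and 34, from 0, 2, 7 and 0 UMIs. S100a8, S100a9 and the lymphocyte genes Cd3e, Cd3d, Cd79a and Nkg7 were at 0, so the 3 detected genes were the monocyte markers of the list. Oligodendrocyte markers summed to 5456, 3217, 2433 and 2451 CPM and astrocyte markers to 2028 to 2384 CPM. Their part in the results was not tested.

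The inflammatory levels of mouse 30 remained high without the cells that held 2 or more macrophage markers. At least 1 marker was held by 19 of 128, 7 of 34, 31 of 95 and 18 of 123 cells in mice 3, 4, 30 and 34. After the removal the marker list still summed to 137, 141, 224 and 108 CPM. Whether macrophages remained among the cells kept was not tested. Without the cells of 2 or more markers the interferon list summed to 349.7, 377, 2823 and 305 CPM in mice 3, 4, 30 and 34. The chemokine and cytokine list summed to 16368, 7813, 23269 and 14693 CPM. In mouse 30 the 13 cells left out held 14.2% of microglial UMIs, 33.8% of the UMIs of the interferon list and 25.2% of those of the chemokine and cytokine list. The identity list of mouse 30 rose from 22164 to 24533 CPM without them and remained the lowest of the 4.

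Microglia varied more between mice than any other type tested. The common biological coefficient of variation, edgeR's estimate of spread beyond counting noise, was 0.262 in microglia over 2814 genes at 50 CPM or more, 0.215 in ependymal cells, and 0.120 to 0.144 in the other 6 types. Without mouse 30 it was 0.167 in microglia and 0.144 in ependymal cells. Without any one of the other mice it was 0.267 to 0.292 in microglia. Microglia also had the smallest sums, at 44756 to 133441 UMIs against at least 208955 in the other 7 types, and whether this adds to their value was not tested.

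**Figure D4:**
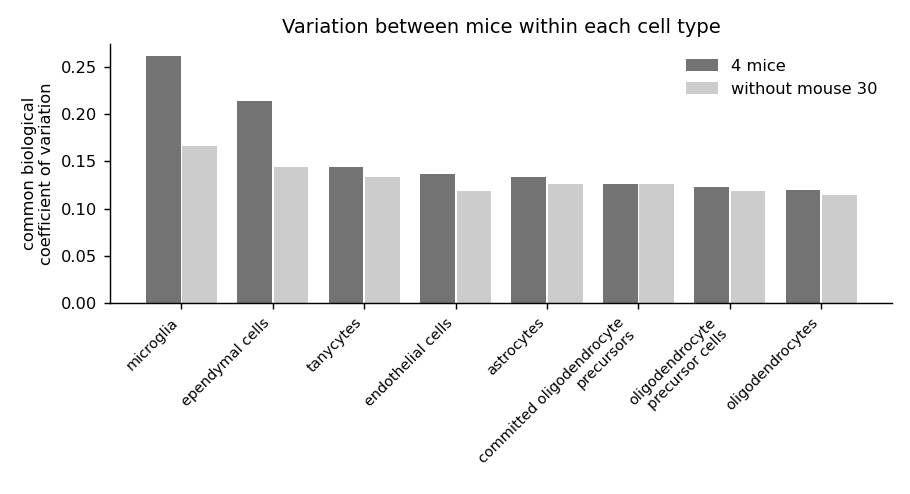
Common biological coefficient of variation between mice for each cell type, over genes at 50 CPM or more in that type, with all 4 mice (dark bars) and without mouse 30 (light bars). Microglia are highest at 0.262, and fall to 0.167 without mouse 30.

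The 10 genes with the largest spread between mice among those at 100 CPM or more were Rsad2, H2-Ab1, H2-Eb1, Saa3, Irg1, Ccl7, H2-Aa, Ms4a6c, Cybb and Isg15. The first 5 shared the upper bound of the estimate and are tied. Saa3, an acute-phase serum amyloid protein, was at 1207 CPM in mouse 30, where its 119 UMIs lay in 10 cells, and had no UMI in the microglia of mice 3, 4 and 34. Of these UMIs 79.8% lay in cells with macrophage markers. Irg1, which makes itaconate in activated macrophages, had 40 UMIs in 17 cells of mouse 30 and none in the other mice, with 8 of them in such cells. Ms4a6c was at 0, 22.3, 436 and 42.1 CPM and Cybb, the NADPH oxidase subunit, at 0, 156, 426 and 67.4 CPM in mice 3, 4, 30 and 34. Genes such as Saa3, Irg1 and Rsad2 reached the 100 CPM of this rule through mouse 30.

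Sums of other types of mouse 30, which include any free RNA, were high for the same lists. The chemokine and cytokine list summed to 16314 CPM in mouse 3, 8423 in mouse 4, 26686 in mouse 30 and 15029 in mouse 34 in microglia. In ependymal cells mouse 30 reached 6722 CPM, in tanycytes 1346 and in endothelial cells 1366, where mice 3, 4 and 34 lay between 49.1 and 187 CPM. In the remaining 4 types of the fit mouse 30 ranged from 273 to 640.4 CPM. The interferon list of mouse 30 summed to 4788 CPM in ependymal cells and 2295 in tanycytes, and was the highest of the 4 mice in 7 of the 8 types, the exception being endothelial cells. Vascular leptomeningeal cells (44 in mouse 30 and 6 to 12 in the other mice), reached 30334 and 10456 CPM for the 2 lists in mouse 30. In oligodendrocytes, used above as the background of free RNA, the chemokine and cytokine list summed to 469 CPM in mouse 30 and 104 to 125 CPM in the others. Saa3, at 1207 CPM in microglia of mouse 30, stood at 8.49 to 40.1 CPM in its 7 other fitted types. Ccl12, at 6519 CPM, stood at 19.1 to 124 CPM there. The part of free RNA in these sums was not tested. The counts of microglia and of other cells of mouse 30 moved together, and the animal and its library cannot be told apart.

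**Figure D5:**
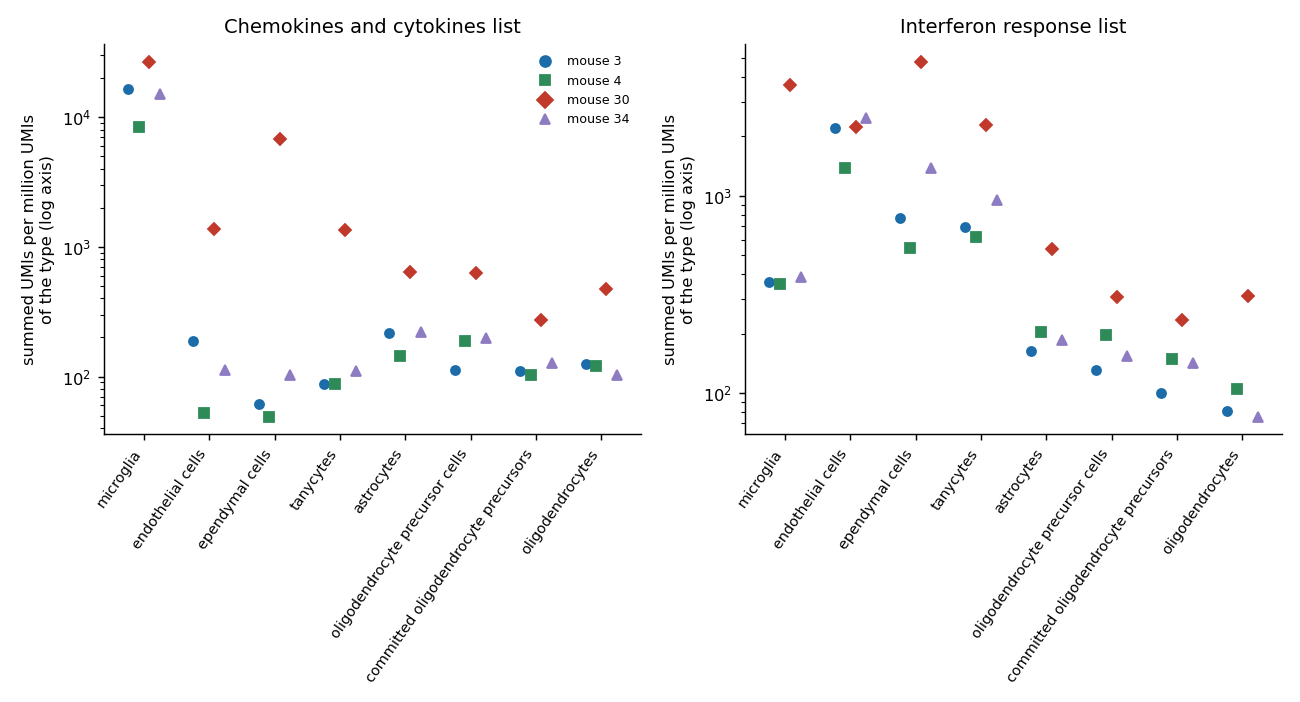
Summed levels of the chemokine and cytokine list (left) and the interferon-response list (right) by cell type and mouse, in CPM of the type on a log axis; each point is 1 mouse. Mouse 30 (diamonds) is highest in every type for the chemokine list and in 7 of 8 types for the interferon list, with endothelial cells as the exception. The sums include any free RNA, whose part was not tested.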

How the data were processed

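Single cells of the hypothalamus of 4 mice were measured by 3′ single-cell RNA-seq. The authors deposited a table of raw UMI counts for 16411 genes, with a table of cells that gives the cell type label, the library, the percent of mitochondrial UMIs, a doublet score, a silhouette score and cluster numbers. Per the labels, the authors' processing notes name Cell Ranger 1.2, Seurat and the builds GRCm38, mm10 and GRCh38, without saying which step each served. The mitochondrial percent, the silhouette score and the doublet score, a fraction between 0 and 1, were used as the authors deposited them, to describe the cells. No cell was removed and no doublet caller was run here; the highest deposited doublet score of a microglial cell was 0.25. Of the 16 libraries in the table, 12 (50172 cells) matched no labelled sample and were not used.

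Counts were summed per cell type and mouse. Vascular leptomeningeal cells were left out of the fit, since a type needed 20 cells in every mouse. The 32 sums of 8 types were fitted with edgeR 4.0.16 in R 4.3.3 (TMM, low-count filter, quasi-likelihood test, mouse as a block because the types come from the same animal), and p-values were adjusted by the Benjamini-Hochberg method over all 10166 genes. In simulated data of 9624 genes for the comparison with the mean of the other types, 32% of genes changed 2-fold and 84% of those changed 4-fold were called. Intervals are exact Poisson or binomial. The p-values refer to these 4 mice only. They rest on the variation of all 32 sums that remained after the mouse block, with no separate dispersion for microglia. The coefficient of variation between mice was 0.262 in microglia and 0.120 to 0.215 in the other types. The p-values and SEs may therefore understate the microglial spread.

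Beside the listed genes, those named were the 12 with the largest and 6 with the lowest differences of the same direction in every mouse (the latter at 100 CPM or more), and the 10 with the largest dispersion between mice at 100 CPM or more. The members, gene lists and rules were chosen with earlier results of these data known. Alternatives were DESeq2 1.42.0, its size factors, no filter, no block, thinned sums, leaving out each mouse, and leaving out cells with 2 or more macrophage markers. Promoters came from RefSeq on GRCm38.p6. Values of a few listed genes are not reported here, although they enter the counts and sums of their lists.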

Additional observations from a re-analysis of the deposited data

Results flagged for a closer look

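The gap between the extreme mouse and the nearest other mouse, divided by the range over the 4 mice, was compared with Dixon's 95% critical value for 4 samples, for 27 list sums and 210 genes. Chance alone passes this limit in about 1 of 20 groups. Of the genes that passed, 25 were set apart by mouse 30, 3 by mouse 4, 1 by mouse 34 and 1 by mouse 3. Over all 2814 genes with at least 20 microglial UMIs, mouse 30 set 79 apart, mouse 4 67, mouse 34 25 and mouse 3 18, so the excess of mouse 30 over mouse 4 holds for the chosen genes and is small over all genes. Among the 25 are Saa3, Irg1 and Ms4a6c, which belong to no list and were named for their dispersion between mice, so that their ratios are a description only; Rsad2, Isg15 and Ccl7 were named by that rule too.

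The summed interferon-response list of mouse 30 stood apart with a ratio of 0.991. Among its genes the ratio was 0.981 for Rsad2, 0.969 for Isg15, 0.962 for Irf7, 0.955 for Ifi27l2a, 0.918 for Ifi204, 0.902 for Gbp2 and 0.900 for Ifitm3, each highest in mouse 30. Of the chemokine and cytokine genes, Ccl12 (0.955), Cxcl10 (0.949), Cxcl2 (0.937), Il1b (0.897), Cxcl1 (0.839) and Ccl7 (0.836) were likewise highest in that mouse. So were Psmb8 (0.956), an immunoproteasome subunit, Socs3 (0.908), Igf1r (0.927), Lyz2 (0.903), Ms4a6c (0.903), Fcgr3 (0.863), and Saa3 and Irg1, each with a ratio of 1 because the other mice had no UMI. Mouse 30 was lowest for Cx3cr1 (0.877), Egr1 (0.927), Cd180 (0.964) and the interferon-γ receptor subunit Ifngr1 (0.833).

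In mouse 4 the immediate early gene Junb was highest (0.970), while C1qb (0.875) and the TNF receptor Tnfrsf1b (0.890) were lowest. Tnfrsf1b stood at 22.3 CPM in mouse 4, under that mouse's level of 3 counts (67.0 CPM). The hexokinase Hk1 was lowest in mouse 34 (0.836). The myelin gene Mag was highest in mouse 3 (0.849), which also had the highest sum of oligodendrocyte markers.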

How the results depend on the processing

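Thinning all sums to the smallest total left 1389 genes to test in place of 10166, of which 336 were called against the mean of the other types, 339 against endothelial cells and 483 against astrocytes. Of the listed genes 111 were left of 259, and 72, 66 and 74 were called in place of 167, 151 and 188. Fits on the sums of the pair alone called 1026 of 2978 genes against endothelial cells and 1805 of 4778 against astrocytes. Without the replicate block for the mouse, 2019, 2056 and 2924 genes were called in the 3 comparisons. Leaving out each mouse gave 1576 to 1854, 1727 to 2037 and 2379 to 2849 genes. Of 176 listed or named genes called, 159 were called under every alternative that gave a value, but 101 gave none when thinned. The log2 difference of Irf7 ranged from −0.43 without mouse 30 to 3.07; the cause was not tested. The coefficient of variation of microglia ranged from 0.167 without mouse 30 to 0.292. Without Cst3, an alternative chosen after seeing the data, the mean identity sum was 11173 CPM in place of 32298. Requiring 1 or 3 macrophage markers gave 75 or 17 cells in place of 26. At 500 UMIs per cell the share with a UMI was 59.2% for Cx3cr1, 17.9% for P2ry12, 34.2% for Tmem119, 72.1% for C1qa and 75.5% for Ccl4. Mouse 4, with 34 cells, had the highest counting limit.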
